A study of Homo sapiens with 18 samples.

Results

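Cell cycle genes and cycle inhibitors were followed in cultures of HepG2, a hepatocellular carcinoma line, that carried a thyroid hormone receptor plasmid or the empty plasmid. The 50 genes were set by name, and no test result enters the rule that finds them. The names were chosen with earlier results of these data known, so the set is not independent of the data. A feature assigned to that gene alone was present for 48 of them, among 18404 genes measured this way, and the expression of CDKN2C and BTG2 was not analysed here. The 48 genes fall into 4 groups by role: 20 S phase and replication genes, 6 G1 cyclins and kinases, 13 mitotic genes, and 9 cycle inhibitors and p53 targets.

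There were 6 groups of 3 arrays. TRα1 cells (aWT, 6 clones), TRβ1 cells (bWT, 12 clones) and empty plasmid cells (NR, 11 clones) each received 100 nM T3, the active thyroid hormone, or ethanol vehicle for 6 h. All clones were HepG2 cells taken through G418 co-selection, and all treatments were given in medium with 10% hormone-stripped serum. Clones of a construct were pooled into a single population, so the receptor and the particular clones in its pool cannot be told apart. The 3 biological repeats of a group carry the numbers 1 to 3. In fits without a term for the repeat number, a p-value sets a difference against the spread between these repeats. In fits with that term, it uses the spread left after the term. The number of arrays limits the precision.

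Values are log2 expression per feature, each on its own scale, so levels of different genes are not compared. Array medians lay between 5.31 and 5.49. The THRA feature read between 7.39 and 8.22 on the 6 TRα1 arrays, against 6.77 to 7.19 on the 6 empty plasmid arrays. The THRB feature read 6.88 to 7.48 on the 6 TRβ1 arrays, against 6.41 to 7.20 on the 6 empty plasmid arrays, so these ranges overlapped. On T3 alone it read 7.39 to 7.48 against 6.90 to 7.20, without overlap. On vehicle alone it read 6.88 to 7.005 against 6.41 to 6.90. TRα1 arrays on T3 read 6.93 to 7.505 for THRB. The empty plasmid cells also gave signal for both receptors. Of the 9 hepatocyte markers chosen, 8 were matched and had group means between 10.2 (TTR) and 12.9 (ALB). The 8 markers of leukocytes, erythroid cells, fibroblasts, endothelium and muscle had group means between 2.39 (PTPRC) and 6.42 (COL1A1). Values differed between the repeat numbers in many of the genes described here (39 of 48, against 54.0% of all features). Results are given with the repeat number as a term in the model (a block). Calls among the 48 genes are also given with each repeat left out. Calls of further genes and of markers were not tested in that way.

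The cycle is driven by cyclins that activate cyclin-dependent kinases. In G1, D-type cyclins with CDK4 and CDK6 phosphorylate RB1, which releases E2F factors and switches on cyclin E and the replication genes of S phase. Mitotic genes are held back by the DREAM complex, which binds CHR elements, and are switched on later together with NF-Y at CCAAT boxes. CDKN1A, CDKN1B and the INK4 proteins inhibit the kinases, and p53 induces CDKN1A, MDM2, SESN1 and GADD45A. T3 binds nuclear receptors that sit on DNA hexamers of the type AGGTCA, and in rodents T3 is a known mitogen for liver cells.

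The DNA words of these factors were unevenly spread over the role groups. In RefSeq's GRCh38.p14 table, 40 of the 50 genes had a start site, 35116 windows of 250 bases before a start were searched on both strands, and these belonged to 27305 genes. E2F words (TTTCCCGC, TTTGGCGC, TTTCGCGC or TTTGCCGC) stood before 10 of 17 S phase genes and before 1 of 11 mitotic genes, against 3.4% of all genes in the table. The CHR word TTTGAA stood before 7 of 11 mitotic genes and 1 of 17 S phase genes, against 16.1% of all genes. CCAAT stood before 10 of 11 mitotic genes, 10 of 17 S phase genes and 6 of 9 inhibitors, against 37.0% of all genes. These 9 include CDKN2C and BTG2 and lack GADD45A and CDKN1C. The hexamer AGGTCA stood before 8 of the 40 genes, or 20.0%, against 14.6% of all genes. The words overlap in none of the windows printed here. Among further genes of the same roles, E2F words stood before 9 of 28 replication genes and CHR before 17 of 32 mitotic genes. A match is a description of letters and not a site shown to be bound.

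The windows of 5 genes on which the results below turn are printed because they show these classes, with matches in capitals. CDCA7L and CDCA7 are MYC-linked S phase genes, and each held the hexamer. CDCA7 also held an E2F word. GADD45B, a stress-induced inhibitor, held CCAAT boxes. CCNB2 and TOP2A show the mitotic pattern of several CCAAT boxes, read as ATTGG on the opposite strand in TOP2A, with CHR. The windows lie at chr7:21945900-21946149 on the minus strand for CDCA7L, chr2:173354622-173354871 on the plus strand for CDCA7, chr19:2475877-2476126 on the plus strand for GADD45B, chr15:59104896-59105145 on the plus strand for CCNB2 and chr17:40417897-40418146 on the minus strand for TOP2A.
CDCA7L: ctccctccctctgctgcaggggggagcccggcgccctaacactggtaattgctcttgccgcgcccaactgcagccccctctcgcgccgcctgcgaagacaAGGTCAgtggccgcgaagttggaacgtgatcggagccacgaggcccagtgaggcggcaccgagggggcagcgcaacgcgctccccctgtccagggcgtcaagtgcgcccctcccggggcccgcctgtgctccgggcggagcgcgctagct
CDCA7: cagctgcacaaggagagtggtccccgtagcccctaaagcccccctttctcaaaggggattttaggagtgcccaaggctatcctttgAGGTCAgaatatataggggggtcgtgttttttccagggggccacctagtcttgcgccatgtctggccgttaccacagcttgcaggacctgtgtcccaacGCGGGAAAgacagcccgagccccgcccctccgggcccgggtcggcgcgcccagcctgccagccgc
GADD45B: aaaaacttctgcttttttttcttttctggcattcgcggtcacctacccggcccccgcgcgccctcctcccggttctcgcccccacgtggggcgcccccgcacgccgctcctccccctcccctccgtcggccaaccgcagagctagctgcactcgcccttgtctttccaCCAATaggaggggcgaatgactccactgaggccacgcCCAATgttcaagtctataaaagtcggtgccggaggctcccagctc
CCNB2: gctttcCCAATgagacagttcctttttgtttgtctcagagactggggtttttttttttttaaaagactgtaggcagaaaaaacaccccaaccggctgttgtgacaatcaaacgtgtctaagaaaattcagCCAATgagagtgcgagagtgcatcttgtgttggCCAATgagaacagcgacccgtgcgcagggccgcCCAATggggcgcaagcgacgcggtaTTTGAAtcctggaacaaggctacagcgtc
TOP2A: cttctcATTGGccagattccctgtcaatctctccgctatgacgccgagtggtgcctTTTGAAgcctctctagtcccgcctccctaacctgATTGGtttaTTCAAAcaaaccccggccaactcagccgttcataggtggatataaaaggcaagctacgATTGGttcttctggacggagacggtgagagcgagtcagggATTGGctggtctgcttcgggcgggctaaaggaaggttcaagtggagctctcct

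After 6 h of T3, GADD45A and GADD45B, both classed with the inhibitors, were higher, and they passed only with the repeats as a block. In the model without that block no member passed the 5% adjusted threshold in any pool (limma), where 0.131% of 20546 features passed in TRα1 cells, 0.0730% in TRβ1 cells and 0.00973% in empty plasmid cells. At an unadjusted p under 0.05 there were 3, 1 and 1 members in these pools, and 523, 457 and 417 of the 20546 features. With the block, 2 members passed in TRα1 cells, both higher, where 0.667% of features passed and 0.584% were higher. No member passed with the block in TRβ1 cells (0.477% of features, with 3 members and 1270 features unadjusted) or in empty plasmid cells (0.0973%, with 1 member and 1222 features unadjusted).

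GADD45A, which p53 and other stress signals induce and which binds PCNA and CDK1, passed in the TRα1 pool. It read 9.06, 8.81 and 8.52 in TRα1 cells on T3, against 8.65, 8.30 and 7.94 on vehicle, in repeats 1, 2 and 3. Every T3 array exceeded the vehicle array of the same repeat, as for 11.7% of features, although the groups overlapped. TRβ1 cells read 9.01, 8.52 and 8.47 on T3, against 8.76, 8.38 and 8.13 on vehicle, also higher in 3 of 3 pairs (14.3% of features). Empty plasmid cells read 8.74, 8.49 and 8.33 on T3, against 8.68, 8.53 and 8.36 on vehicle, with T3 higher in 1 of 3 pairs. The difference in TRα1 cells was 0.50 ± 0.08 (SE with the block, adjusted p = 0.00681 in limma), and without the block the SE was 0.21. The call was lost with the block when TRα1 vehicle repeat 3 was left out (adjusted p = 0.0580) or TRα1 T3 repeat 2 (0.0530), and when any repeat number was left out entirely (0.0845 to 0.333).

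GADD45B, a related stress-response gene, followed with a wider spread. TRα1 cells read 7.53, 7.19 and 6.72 on T3, against 6.71, 6.35 and 6.58 on vehicle. The groups did not overlap, as for 2.64% of features higher on T3, although repeat 3 moved little. TRβ1 cells read 7.35, 7.32 and 6.97 on T3, against 6.95, 6.75 and 6.73 on vehicle, again without overlap (2.40% of features). Empty plasmid cells read 6.99, 6.81 and 6.51 on T3, against 6.79, 6.60 and 6.51 on vehicle, with overlap. The TRα1 difference was 0.60 ± 0.12 (SE with the block, adjusted p = 0.0255 in limma), the TRβ1 difference was 0.40 ± 0.12 (adjusted p = 0.304) and the empty plasmid difference was 0.14 ± 0.12 (adjusted p = 0.928). The TRα1 call was lost without TRα1 vehicle repeat 1 (0.119) or 2 (0.186), without TRα1 T3 repeat 1 (0.166) or 2 (0.165), and without repeat number 1 (0.432) or 2 (0.553).

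Averaged over the pools, GADD45B differed by 0.38 ± 0.07 (SE with the block, adjusted p = 0.00645 in limma) and GADD45A by 0.25 ± 0.05 (adjusted p = 0.0119), the members called among 1.69% of features (1.36% higher). Without the block 0 of 48 passed (0.423% of features, with 4 members and 784 of 20546 features at an unadjusted p under 0.05), with an adjusted p of 0.302 for GADD45B. With the block, GADD45A lost this call without any repeat number (0.118 to 0.350), and GADD45B without repeat number 1 (0.198) or 2 (0.286). The test of whether the response differs between receptor and empty plasmid cells passed for no member, with or without the block (0.00% of features without it in each of the 3 tests, 0.0292% with it for TRα1 against empty plasmid and 0.00% for the other tests). At an unadjusted p under 0.05 without the block there were 286, 275 and 223 features, and 0 members, for TRα1 and TRβ1 against empty plasmid and TRβ1 against TRα1. With the block there were 770, 835 and 619 features, and 2, 1 and 2 members, in the same order. The response of GADD45A in TRα1 cells exceeded that in empty plasmid cells by 0.51 (95% interval with the block 0.26 to 0.76, adjusted p = 0.561), and that of GADD45B by 0.46 (0.11 to 0.82, also short of the threshold). The pool in which a gene passed is therefore not shown to differ from the others in response.

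**Figure D1:**
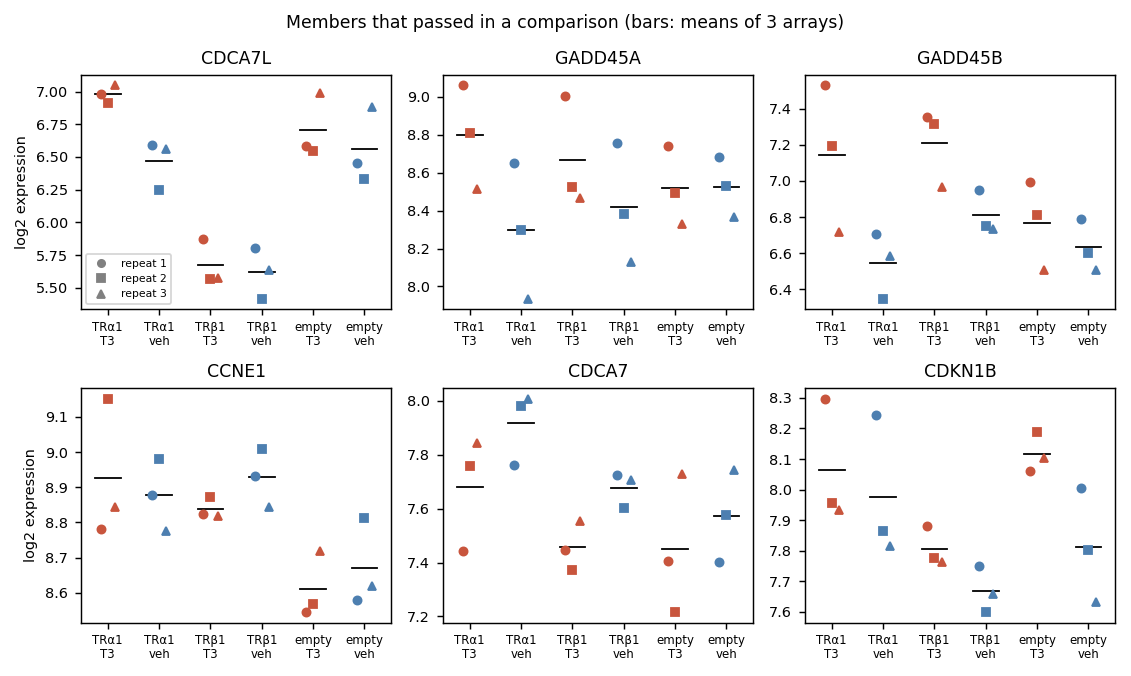
Log2 expression (vertical axis) of 6 members that passed in at least 1 comparison, with the 6 groups along the horizontal axis, a symbol for each repeat number, red for T3 and blue for vehicle, and bars at the means of 3 arrays. CDCA7L reads 5.87 or less on all 6 TRβ1 arrays, and GADD45A and GADD45B stand higher on T3 than on vehicle in the pools with a receptor.

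S phase genes, on the average over the pools, had a median T3 difference of 0.00, with 9 of 20 above 0 and 11 below, against a median of -0.01 over all features. The largest were CDCA7L, 0.24 (adjusted p = 0.141 with the block in limma), and CDCA7, -0.19 (0.172), neither of which passed. CDCA7L read 6.98, 6.91 and 7.05 in TRα1 cells on T3, against 6.59, 6.25 and 6.56 on vehicle, without overlap (2.64% of features). The difference was 0.51 ± 0.12 (SE with the block, adjusted p = 0.0847 in limma). Block intervals of the 20 genes lay within -0.32 and 0.39. The replication licensing factors MCM2 to MCM7, the loaders CDC6 and CDT1, and the nucleotide enzymes RRM1, RRM2 and TYMS were all among those that did not pass.

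G1 genes had a median of -0.03, with CDK6, a D-cyclin partner, at -0.16 (adjusted p = 0.213 with the block) and CCND2, a D-type cyclin with a dim feature (mean 5.22), at 0.10 (0.657). Their block intervals lay within -0.28 and 0.23. Mitotic genes had a median of 0.04, 11 of 13 above 0, where 8679 of 20546 features were above 0. Their medians in repeats 1, 2 and 3 were -0.01, 0.05 and 0.08, with 6, 11 and 10 of 13 above 0. The largest were AURKB, an Aurora kinase of chromosome segregation, at 0.13 (0.173) and the topoisomerase TOP2A at 0.11 (0.654). Block intervals of the mitotic genes lay within -0.18 and 0.27, and without the block within -0.56 and 0.72, both set by CDK1 in that case. Inhibitors had a median of 0.08, with block intervals from -0.19 to 0.52, the widest reach upward being that of GADD45B. In these bulk cultures, fewer cells in a phase and less RNA per cell cannot be told apart.

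**Figure D2:**
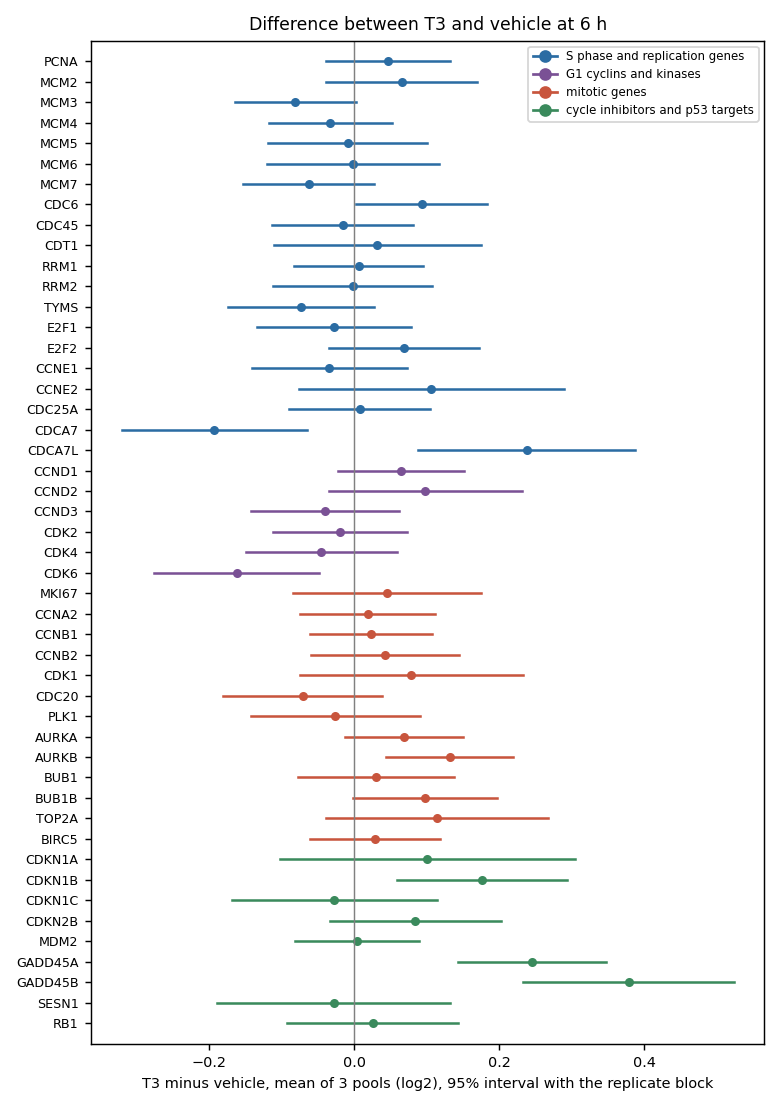
T3 minus vehicle averaged over the 3 pools (horizontal axis, log2 units) for the 48 genes (vertical axis) by role group, as points with 95% intervals from the fit with the repeat block. GADD45A and GADD45B passed the adjusted threshold, and the other genes lie between -0.19 and 0.24.

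Of 28 further inhibitors and p53 targets, 1 passed with the block over the pools, GDF15, a stress-induced secreted factor, which was higher on T3 by 0.34 ± 0.05 (SE, adjusted p = 0.00169 in limma), beside 1.36% of features called higher. Without the block no gene of that list passed. No gene among 30 further replication genes or 38 further mitotic genes passed. Among hepatocyte markers FGB was higher by 0.26 with the block (adjusted p = 0.0490) and did not pass without it, and its part in these results was not tested.

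Between the pools, CDCA7L stood out as low in the TRβ1 cells. The gene encodes a MYC-interacting nuclear protein with a zinc finger domain related to CDCA7. It read 5.87, 5.57 and 5.57 on T3 and 5.80, 5.42 and 5.64 on vehicle in TRβ1 cells, against 6.58, 6.54 and 6.99 on T3 and 6.46, 6.33 and 6.89 on vehicle in empty plasmid cells. All 6 TRβ1 arrays lay below all 12 others, of which the lowest read 6.25. Of 20546 features, 69 were lower on all TRβ1 arrays than on any empty plasmid array, and 85 than on any TRα1 array. TRα1 cells read 6.25 to 7.05, a range that overlapped that of empty plasmid cells.

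Over both treatments CDCA7L was lower in TRβ1 than in empty plasmid cells by a difference of -0.99 ± 0.12 (SE, adjusted p = 3.55e-04 in limma), or 0.504-fold. It was lower in TRβ1 than in TRα1 cells by a difference of -1.08 ± 0.12 (adjusted p = 3.65e-04). On vehicle alone the difference from empty plasmid cells was -0.94 ± 0.16 (adjusted p = 0.0358), and that from TRα1 cells was -0.85 ± 0.16 (adjusted p = 0.134; 0.00378 with the block). TRα1 did not pass against empty plasmid (0.09 ± 0.12, adjusted p = 0.969). Without the block, the vehicle call against empty plasmid was lost when any array of TRβ1 vehicle, empty plasmid vehicle or TRα1 T3 was left out, or TRα1 vehicle repeat 3 or TRβ1 T3 repeat 2 (0.0518 to 0.238), and with the block it was kept for any single array but lost without repeat number 2 (0.108) or 3 (0.05003). The vehicle call against TRα1 with the block was lost without any repeat number (0.0890 to 0.174). The calls over both treatments were lost without the block when repeat number 2 or 3 was left out, at 0.0628 and 0.138 against empty plasmid and 0.135 and 0.0738 against TRα1, and were kept with it (at most 0.00781). In every comparison over both treatments, the T3 and vehicle arrays of a pool and repeat counted as separate arrays. No term for what such arrays share was fitted, so these SEs and p-values can be too small.

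CDCA7L was the member called without the block over both treatments in TRβ1 against empty plasmid (0.380% of features), and in TRβ1 against TRα1 (0.350%). On vehicle it was also the member called in TRβ1 against empty plasmid, without the block (0.117% of features) and with it (0.735%). In TRβ1 against TRα1 on vehicle no member passed without the block (0.00% of features; 593 features and 2 members at an unadjusted p under 0.05), and CDCA7L passed with it (0.540%). In TRα1 against empty plasmid on vehicle no member passed without the block (0.307% of features, with 1 member and 977 features unadjusted) or with it (2.07%, with 10 members and 2789 features unadjusted).

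With the block, further S phase and G1 genes were higher in TRα1 than in empty plasmid cells over both treatments, a comparison in which 7.54% of features passed and 4 of 48 members did. These were CDCA7, a partner of the chromatin remodeller HELLS, at 0.29 ± 0.07 (adjusted p = 0.0262 in limma), the cyclin CCND2 at 0.28 ± 0.08 (0.0342), MCM5, a subunit of the replicative helicase, at 0.26 ± 0.06 (0.0178), and CCNE1, the cyclin that activates CDK2 at S phase entry, at 0.26 ± 0.06 (0.0162). The share of members is close to that of all features. Without the block 0 members passed (1.38% of features, with 6 members and 1743 of 20546 features at an unadjusted p under 0.05), with adjusted p between 0.151 and 0.314 for these 4 genes. All 4 were lost when any repeat number was left out.

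CCNE1 ran from 8.78 to 9.15 (median 8.86) on 6 TRα1 arrays and from 8.82 to 9.01 (median 8.86) on 6 TRβ1 arrays, against 8.55 to 8.81 (median 8.60) on 6 empty plasmid arrays. The TRβ1 values therefore lay above all empty plasmid values, as for 149 of 20546 features, and the TRα1 values overlapped them. Its difference in TRβ1 against empty plasmid was 0.24 ± 0.06 (SE with the block, adjusted p = 0.0402 in limma), among 3.61% of features called with the block, and the call was lost in 13 of 18 fits that left out 1 array (0.0520 to 0.122) and in 3 of 3 that left out a repeat number (0.202 to 0.223). Without the block its adjusted p was 0.413. In TRα1 cells it was lost in 1, without the empty plasmid T3 array of repeat 2 (0.0532).

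MCM5 ran from 9.18 to 9.51 (median 9.26) on TRα1 arrays, against 8.85 to 9.31 (median 9.01) on empty plasmid arrays. CDCA7 ran from 7.44 to 8.01 (median 7.80) in TRα1 cells, against 7.22 to 7.74 (median 7.49) in empty plasmid cells. CCND2 ran from 5.23 to 5.57 (median 5.39) in TRα1 cells, against 4.93 to 5.29 (median 5.11) in empty plasmid cells. All 3 genes overlapped between these pools. Their calls were lost in 4, 5 and 7 of the 18 fits that left out 1 array. MCM5 lost it without repeat 3 of TRα1 vehicle (0.0508) or T3 (0.0524), or repeat 2 of empty plasmid vehicle (0.0542) or T3 (0.0534). CDCA7 lost it without repeat 2 of TRα1 vehicle (0.0824) or T3 (0.0782), TRα1 T3 repeat 3 (0.0646), empty plasmid vehicle repeat 1 (0.0633) or empty plasmid T3 repeat 2 (0.0798).

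CCND2 lost its call without repeat 1 (0.0545) or 3 (0.0953) of TRα1 vehicle, repeat 1 (0.0768) or 2 (0.0948) of TRα1 T3, repeat 1 (0.0849) or 2 (0.0842) of empty plasmid vehicle, or repeat 3 of empty plasmid T3 (0.0856). Other G1 genes did not pass. CDK4, an RB1 kinase, differed by 0.12 in TRα1 and 0.08 in TRβ1 against empty plasmid cells (adjusted p = 0.261 and 0.581 with the block in limma), and CCND3 by 0.10 in TRβ1 (0.420).

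**Figure D3:**
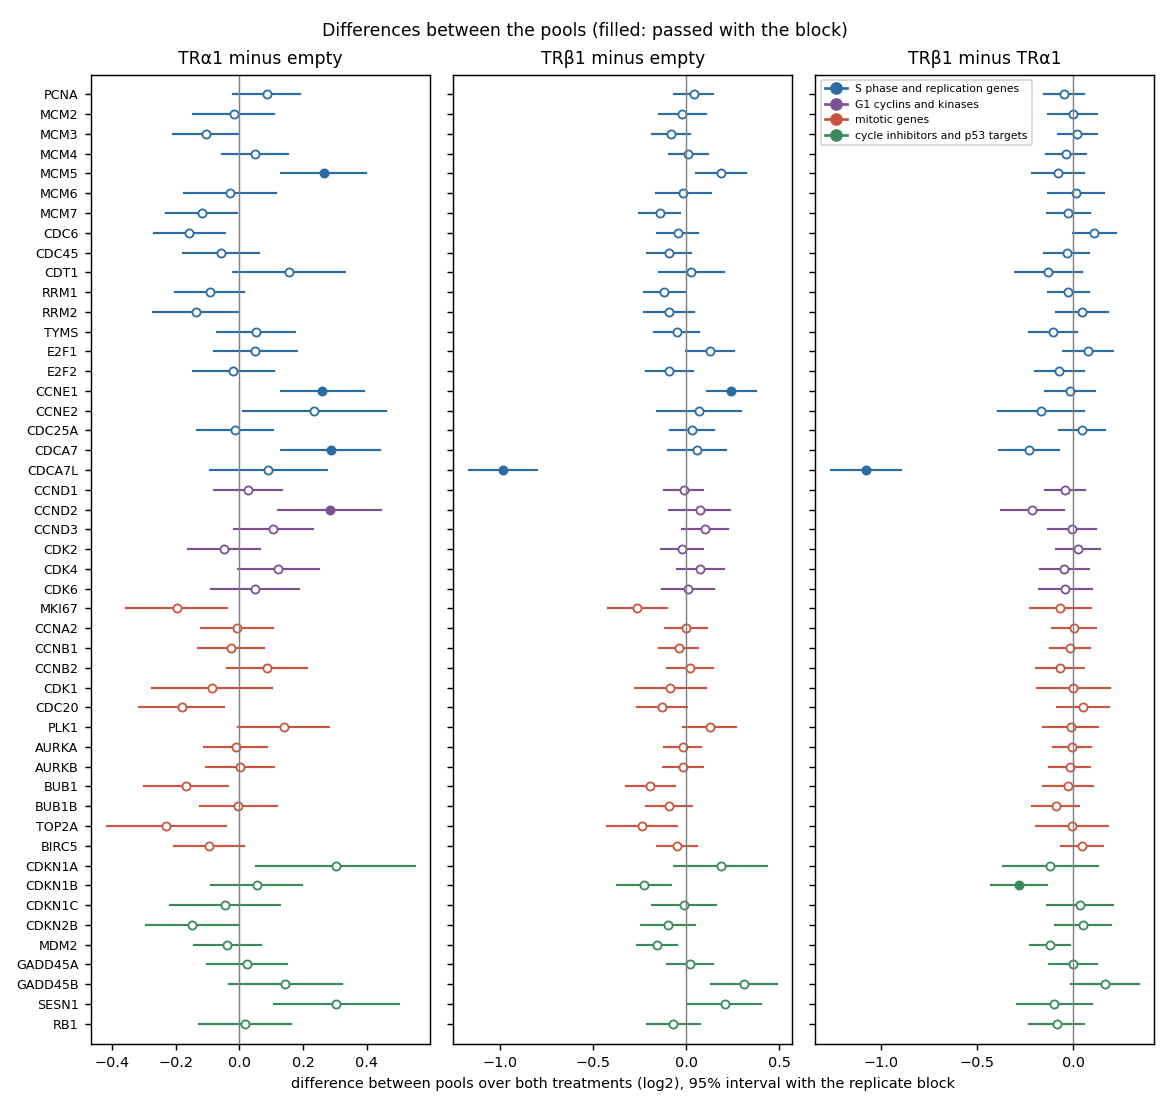
Differences between pools over both treatments (horizontal axes, log2 units) for the 48 genes (vertical axis), as points with 95% intervals from the fit with the repeat block, in panels for TRα1 minus empty plasmid, TRβ1 minus empty plasmid and TRβ1 minus TRα1. Filled points passed with the block, and CDCA7L at -0.99 and -1.08 lies far below the other genes in both TRβ1 panels.

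None of the 13 mitotic members passed between the pools in limma, with or without the block. In TRα1 against empty plasmid 10 of 13 lay below 0 (median -0.03), and in TRβ1 against empty plasmid 11 of 13 (median -0.05), against medians of 0.00 over all features. MKI67, a proliferation marker, differed by -0.20 in TRα1 and -0.26 in TRβ1 cells (adjusted p = 0.133 and 0.0675 with the block in limma), and TOP2A by -0.23 and -0.24 (0.135 and 0.169). The differences were uneven over the repeats, since TOP2A in TRα1 against empty plasmid was -0.01, -0.58 and -0.11 in repeats 1, 2 and 3. MKI67 was -0.08, -0.45 and -0.06, with the largest size of both in repeat 2. The comparisons share the empty plasmid arrays.

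None of the 9 members classed as inhibitors and p53 targets passed between a receptor pool and empty plasmid cells. SESN1, a p53-induced regulator of oxidative stress and mTOR signalling, was 0.30 in TRα1 against empty plasmid (adjusted p = 0.0593 with the block in limma), with 0.07, 0.65 and 0.18 in repeats 1, 2 and 3. CDKN1A, which encodes p21, was 0.30 (0.141), with 0.21, 0.52 and 0.17. GADD45B was 0.31 in TRβ1 against empty plasmid (0.0553), with 0.26, 0.33 and 0.34.

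CDKN1B, which encodes the inhibitor p27, ran from 7.60 to 7.88 (median 7.76) on TRβ1 arrays, against 7.82 to 8.30 (median 7.95) on TRα1 arrays and 7.63 to 8.19 (median 8.03) on empty plasmid arrays. TRβ1 and TRα1 ranges overlapped slightly. The TRβ1 minus TRα1 difference was -0.28 ± 0.07 (SE with the block, adjusted p = 0.0406 in limma; 0.534 without it), among 2.20% of features called, and the call was lost in 13 of 18 fits that left out 1 array (0.0512 to 0.117) and in 3 of 3 that left out a repeat number. Against empty plasmid cells it was -0.23 (0.0809).

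Further genes of the same roles passed with the block in these comparisons over both treatments. Their calls were not tested with arrays or repeats left out. In TRα1 against empty plasmid cells, 6 of 28 further inhibitors and p53 targets were higher (4.43% of features), among them PHLDA3 at 0.39, CCNG2 at 0.31, TP53INP1 at 0.31 and ZMAT3 at 0.27, and GDF15 was lower at -0.22. Of 38 further mitotic genes UBE2C (-0.40) and ASPM (-0.40) were lower and CDC25B (0.35) higher, and of 30 replication genes ORC1 was lower (-0.24). Both counts are close to the shares of all features (7.54% in either direction, 3.11% lower). In TRβ1 against empty plasmid cells 5 of 30 further replication genes were lower (1.70% of features), among them CLSPN at -0.51, ORC1 at -0.37, POLA1 at -0.31 and GINS4 at -0.25. Of 38 further mitotic genes 1 passed, UBE2C, lower at -0.30, a count close to the share of all features called lower. Of 28 further inhibitors and p53 targets, 2 were lower, RBL1 at -0.26 and RBL2 at -0.30. Another 1 was higher, BTG1 at 0.22, where 1.91% of features were called higher. Without the block none of these genes passed in limma. In TRβ1 against empty plasmid cells 33 of 38 further mitotic genes lay below 0, where 10283 of 20546 features did. Their repeat medians were -0.02, -0.19 and -0.08, with 17, 9 and 4 of 38 above 0 in repeats 1, 2 and 3. In TRα1 against empty plasmid cells 29 of 38 lay below 0, where 10180 features did, with 25, 7 and 13 above 0 in these repeats. Hepatocyte markers differed between the pools as well, and of 8 matched, 4 passed with the block in TRα1 against empty plasmid cells (ALB, AFP and TTR lower, APOA1 higher), 0 in TRβ1 against empty plasmid and 2 in TRβ1 against TRα1. TTR was -0.70 and AFP -0.31 in TRα1 against empty plasmid cells (adjusted p = 0.00211 and 0.0149 without the block), and TTR was 0.63 and AFP 0.31 in TRβ1 against TRα1 cells (0.0136 and 0.0379). Of the 8 markers of other cell types none passed in these 3 comparisons. The part of the markers in the pool results was not tested.

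Most of the cycle genes differed between the 3 biological repeats, among them all 13 mitotic members. A moderated F test of the repeat number, with groups in the model, called 39 of 48 members (81.2%), against 54.0% of all features: 16 of 20 S phase genes, 2 of 6 G1 genes, 13 of 13 mitotic genes and 8 of 9 inhibitors. Members moved in opposite directions, 17 higher and 22 lower in repeat 1 than in the mean of the others, while over all features 3729 were higher and 7364 lower. Called mitotic genes split into 6 higher and 7 lower. The members that did not pass were CDC6, CDT1, RRM1, CCNE1, CCND1, CCND2, CCND3, CDK2 and CDKN1C. Of the further genes, 33 of 38 mitotic genes, 26 of 30 replication genes and 25 of 28 inhibitors and p53 targets passed, so the wider lists were alike.

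CDK1, the kinase of mitotic entry, ran from 8.66 to 9.08 (median 8.83) on 6 arrays of repeat 1, against 7.41 to 7.81 (median 7.66) on the 12 arrays of repeats 2 and 3, a difference of 1.23. Its partner CCNB2 ran from 9.43 to 9.52, against 8.55 to 9.10, a difference of 0.62. PCNA, the sliding clamp of DNA polymerase, ran from 11.1 to 11.3, against 10.3 to 10.6, a difference of 0.75. These 3 genes and CDK4 lay above all other arrays in repeat 1 (8.53% of features), and MDM2, RB1, MCM4 and CDC25A lay below them (9.42%). Members apart in this way were about as frequent as features in general.

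The mitotic genes MKI67 and TOP2A went the other way, with -0.48 and -0.49. TOP2A had a mean of 9.67 in repeat 1, 9.92 in repeat 2 and 10.4 in repeat 3. MDM2, the p53-induced ubiquitin ligase, differed by -0.50 and RB1 by -0.44. CDKN1A was highest in repeat 2, with a mean of 8.53, against 7.90 in repeat 1 and 7.67 in repeat 3.

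**Figure D4:**
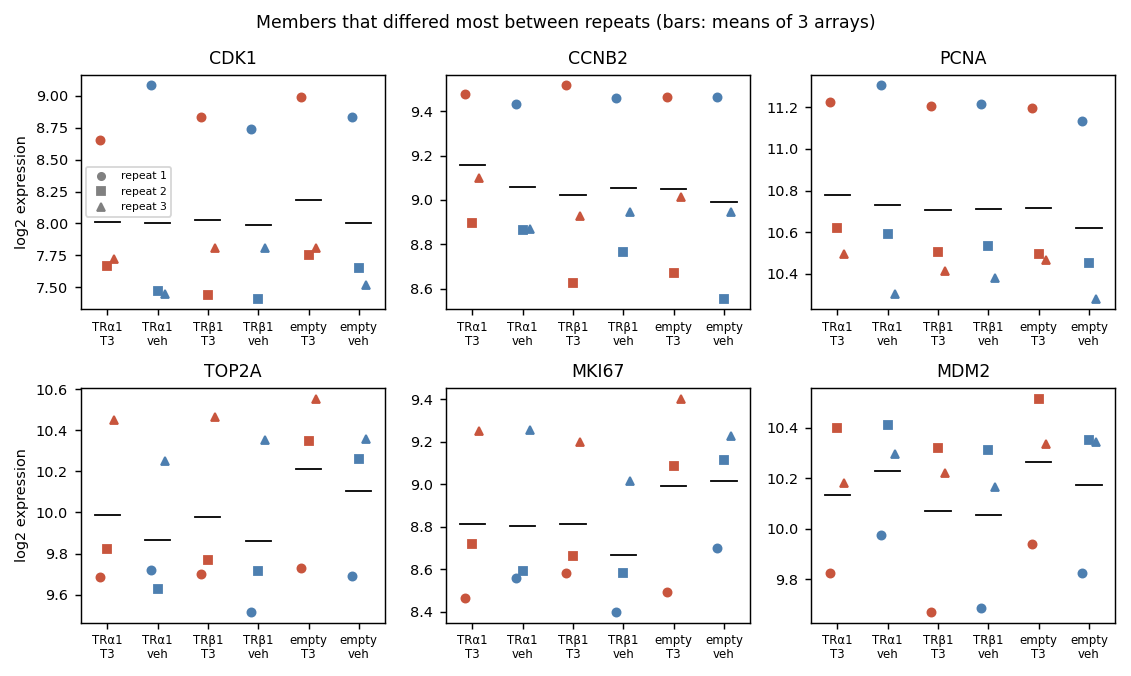
Log2 expression (vertical axes) of 6 members with large differences between repeats, with the 6 groups along the horizontal axis, a symbol for each repeat number, red for T3 and blue for vehicle, and bars at the means of 3 arrays. CDK1, CCNB2 and PCNA are highest in repeat 1 in every group, and MDM2 is lowest there.

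**Figure D5:**
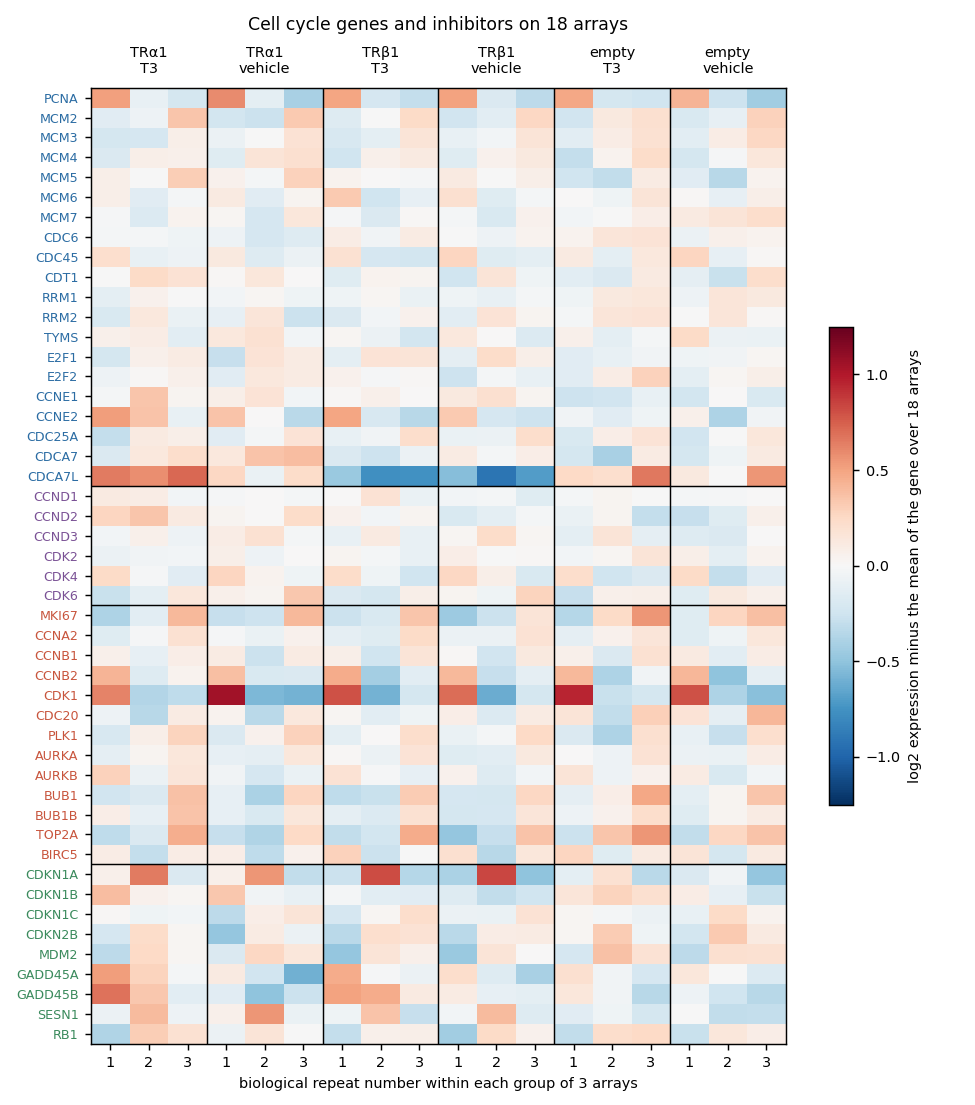
Expression of the 48 genes (rows, by role group) on the 18 arrays (columns, by group and repeat number), as the log2 difference from the gene's mean over all arrays, with red above and blue below. CDK1, PCNA and CCNB2 are red in repeat 1 of every group, and CDCA7L is blue on all 6 TRβ1 arrays.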

How the data were processed

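RNA was measured on 18 single-colour arrays, 3 for each of 6 groups, with no read depth. Per the submitters' processing notes, the authors made the deposited log2 values with RMA under R 2.7.1. There were 32321 features, valued between 0.894 and 13.7, and the genome build of its annotation is not given in the sources used here. A symbol was available for 20546 features, 19158 of them with a single gene. Where a gene had several single-gene features, the one with the highest mean over 18 arrays was used. That applied to BIRC5.

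From these, a model with the 6 groups was fitted to all 20546 features with limma 3.58.1 in R 4.3.3 and its moderated test, two-sided, with Benjamini-Hochberg adjustment within a comparison and a threshold of 0.05. The fit was tested on simulated data. The comparisons were T3 against vehicle in each pool and on average, differences of those responses, differences between pools on vehicle and over both treatments, and the repeat number. Neither fit had a term for what the T3 and vehicle arrays of a pool share within a repeat.

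Repeat numbers pair the arrays. After group means were subtracted, all 45 pairs with the same number correlated positively (lowest 0.259), the median of pairs with different numbers was -0.483, and 18 of 18 arrays correlated best with an array of their own number. The fit with the number as a block is therefore printed beside results that it changes. The median SE of a T3 response was 0.157 without the block and 0.107 with it.

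The genes and lists were chosen with earlier results of these data known. Named with values are up to 12 members per comparison that passed with or without the block, the 2 members per role group with the largest average T3 difference and the 2 with the largest difference of each receptor pool from empty plasmid, and up to 4 called genes of each wider list. Genes named for the repeat number were chosen after their values were seen. Alternatives left out single arrays or repeats, changed the features tested, the centring, weights and variance prior, or used only the groups compared.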

Additional observations from a re-analysis of the deposited data

How the results depend on the processing

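Counts of members past the threshold out of 48 changed with the repeat number as a block. They were 2 for T3 in TRα1 cells and 2 for the average T3 response (0 and 0 without it), 4 for TRα1 and 2 for TRβ1 against empty plasmid over both treatments (0 and 1), and 2 over both treatments and 1 on vehicle for TRβ1 against TRα1 (1 and 0). The single call on vehicle in TRβ1 against empty plasmid, CDCA7L, became 0 with only the groups of the comparison, with all features of the table tested, and with each array centred on its median. Leaving out arrays or repeats, with or without the block, gave 0 to 2 for T3 in TRα1 cells, 0 to 3 for the average response, 0 to 5 and 0 to 3 for TRα1 and TRβ1 against empty plasmid over both treatments, 0 to 2 for TRβ1 against TRα1 over both treatments, 0 to 1 for both TRβ1 comparisons on vehicle, and 16 to 40 for the repeat number. The other counts were 0 under the alternatives run. No named value changed sign in 51 settings. The cause of these changes was not tested, except that leaving out a repeat number leaves 12 arrays. CDCA7L over both treatments passed with the block when any array or repeat was left out. The block changed no other count of members. With 3 arrays per group, the 95% intervals of the average T3 difference with the block reach 0.39 for S phase genes. The repeat number was not recomputed with the mean over the features of a gene.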
